A study of Caenorhabditis elegans with 2 samples.

Results

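The regions described here are the 190 candidate binding regions of the transcription factor ELT-3 whose summits lay inside or within 100 bp of a small nucleolar RNA (snoRNA) or small nuclear RNA (snRNA) gene, out of 30000 regions in the deposited list made from both libraries together. Regions on mitochondrial DNA were left out, which left 29973 nuclear regions, and 1 region that also lay within 100 bp of a tRNA gene was dropped. The members were chosen by position alone, without their signal or sequence. Of them, 135 had a snoRNA gene as the nearest gene, 17 an sls gene and 38 another snRNA gene, and 175 different genes were represented.

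ELT-3 belongs to the GATA family of zinc-finger factors and is known for its role in the epidermis of *Caenorhabditis elegans*. The data come from ChIP-seq, the sequencing of DNA recovered with an antibody to a chromatin-bound protein, in whole L1 larvae, the stage that hatches, of mixed sex from strain OP75. All worms carried unc-119(ed3) III and the transgene wgIs75, and the label of 1 library notes that the line expresses ELT-3 with a C-terminal GFP-FLAG tag. There was 1 group, with 2 libraries labelled as biological replicates 1 and 3. No second genotype, stage or untagged strain is in the lists used here, which leaves nothing to compare between groups. Replicate 3 is labelled as sonicated with a microtip and replicate 1 as having fragments of 150 to 350 bp, and the worms of the libraries came from different sources. The antibody is labelled elt-3 and the experiment eGFP-elt-3. Whole larvae were used, so a region may come from any tissue that expresses the tagged protein.

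snRNAs form the core of the spliceosome, and the related spliced-leader RNAs of the sls genes are donated to the 5′ ends of many worm mRNAs by trans-splicing. SL1 RNA comes from the sls-1 genes, which lie among the 5S ribosomal RNA genes, and SL2 RNA, used mainly for downstream genes of operons, comes from the sls-2 genes. snoRNAs guide the methylation and pseudouridylation of other RNAs, with a box C/D or a box H/ACA protein set. Most snRNA and SL RNA genes are transcribed by RNA polymerase II from a short promoter whose proximal sequence element, a little way before the start, is recognised by the SNAPc complex. RNA polymerase III reads tRNA genes through an A box and a B box inside the gene, and some small RNA genes of worms carry such boxes ahead of the mature RNA. GATA factors recognise WGATAR, that is GATA with A or T before it and A or G after it.

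The sequence ahead of the genes with strong members was of several types. For some of them the 100 bases before the annotated 5′ end are shown. They are on the strand of the gene, from the RefSeq WBcel235 genome (build ce11). Apart from sls-2.1 and sls-2.2, every gene shown here and below carries a motif, so these examples do not show how common each type was. For sls-2.1 (chrII:5844765-5844864, plus strand) and sls-2.2 (chrII:5543498-5543597, plus strand), which held some of the strongest members, the capitals mark the longest run that both share in the first 50 bases of this window, 15 bases long and beginning 65 bases before each gene. That limit cuts the run short. A longer shared run, left in lower case, is gtctcgcagtgttagtc, which stands directly before both genes. The sls-2.8 sequence (chrIII:12250365-12250464, plus strand) is given for comparison, with a 17-letter motif in capitals that reads GNAACNC, then 6 free letters, then TGTC.
sls-2.1: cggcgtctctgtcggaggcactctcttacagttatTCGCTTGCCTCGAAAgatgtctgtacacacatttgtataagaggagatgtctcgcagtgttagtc
sls-2.2: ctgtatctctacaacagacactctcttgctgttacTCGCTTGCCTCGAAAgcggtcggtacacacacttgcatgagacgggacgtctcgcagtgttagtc
sls-2.8: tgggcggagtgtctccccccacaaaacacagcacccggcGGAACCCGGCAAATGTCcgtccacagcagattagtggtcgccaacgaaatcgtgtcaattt

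The same 17-letter motif stood before other snRNA genes and before a share of the snoRNA genes. It is shown in capitals for R07E5.16 (gene ID WBGene00014543, chrIII:10989579-10989678, plus strand; 14 genes share this name), for sup-6, a U1 snRNA gene (chrII:12944968-12945067, minus strand), and for the snoRNA genes Y53F4B.47 (chrII:15025894-15025993, minus strand), ZK994.7 (chrV:8500479-8500578, plus strand) and C08D8.3 (chrV:8349008-8349107, plus strand). The last sequence, of the snRNA gene F07C6.5 (WBGene00014306, chrIV:12795484-12795583, plus strand), carries the motif although no candidate region lay at that gene.
R07E5.16: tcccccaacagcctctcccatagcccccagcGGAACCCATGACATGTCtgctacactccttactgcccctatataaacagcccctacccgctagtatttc
sup-6: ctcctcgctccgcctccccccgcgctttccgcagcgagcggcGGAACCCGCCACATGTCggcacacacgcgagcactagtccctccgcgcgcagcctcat
Y53F4B.47: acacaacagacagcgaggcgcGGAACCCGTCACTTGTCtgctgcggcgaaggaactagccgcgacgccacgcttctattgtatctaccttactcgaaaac
ZK994.7: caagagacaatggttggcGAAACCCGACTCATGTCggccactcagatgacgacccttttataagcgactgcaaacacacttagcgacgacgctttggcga
C08D8.3: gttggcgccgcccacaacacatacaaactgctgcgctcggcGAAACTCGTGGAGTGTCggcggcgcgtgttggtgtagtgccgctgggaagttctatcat
F07C6.5: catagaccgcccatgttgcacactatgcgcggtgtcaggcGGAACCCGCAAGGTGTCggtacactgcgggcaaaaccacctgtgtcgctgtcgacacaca

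A second group of snoRNA genes had letters of tRNA promoters ahead of the gene. In F12F6.11 (chrIV:11549865-11549964, minus strand), T03F7.8 (chrV:11314158-11314257, plus strand), F32E10.10 (chrIV:7574022-7574121, plus strand) and F30H5.4 (chrIII:502704-502803, plus strand), the capitals mark the A box letters TGGCNNAGNNG where present and the B box letters GTTCGA or GTTCNANNCC. D1054.17 (chrV:10772025-10772124, plus strand) has the A box letters and no candidate region.
F12F6.11: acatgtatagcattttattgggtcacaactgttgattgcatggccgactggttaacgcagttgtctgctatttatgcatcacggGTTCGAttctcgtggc
T03F7.8: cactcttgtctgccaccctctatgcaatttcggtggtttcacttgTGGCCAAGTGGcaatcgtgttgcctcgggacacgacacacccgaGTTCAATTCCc
F32E10.10: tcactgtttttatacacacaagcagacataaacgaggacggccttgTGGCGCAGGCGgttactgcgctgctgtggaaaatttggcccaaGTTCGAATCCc
F30H5.4: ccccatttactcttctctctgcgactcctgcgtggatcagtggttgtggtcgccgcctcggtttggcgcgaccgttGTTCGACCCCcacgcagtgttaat
D1054.17: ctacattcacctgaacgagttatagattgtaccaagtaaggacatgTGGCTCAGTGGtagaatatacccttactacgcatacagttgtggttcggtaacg

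Except for GTTCGA, these motifs were spelled out after the upstream sequences of members had been read, so the counts by motif are a description of these genes. Within 120 bases upstream, on the strand of the gene, the 17-letter motif stood before 9 of 30 sls genes, in all 9 with its first base 61 bases before the gene. It stood before 26 of 99 other snRNA genes, at a median of 59.5 bases, and before 34 of 346 snoRNA genes, at a median of 61 bases. It stood before 2 of 612 tRNA genes and 13 of 19973 coding genes (0.0651%). The A box letters stood before 25 snoRNA genes, at a median of 58 bases, and before 0.175% of coding genes. The B box letters GTTCNANNCC stood before 23 snoRNA genes, at a median of 14 bases, and before 0.381% of coding genes, and GTTCGA, which can form the start of the longer motif, before 26 snoRNA genes and 1.75% of coding genes. Of the 35 snoRNA genes with either B box spelling, 14 also held the A box letters, and 1 of the 475 snoRNA and snRNA genes held both the 17-letter motif and a B box spelling. No sls gene held A or B box letters.

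**Figure D1:**
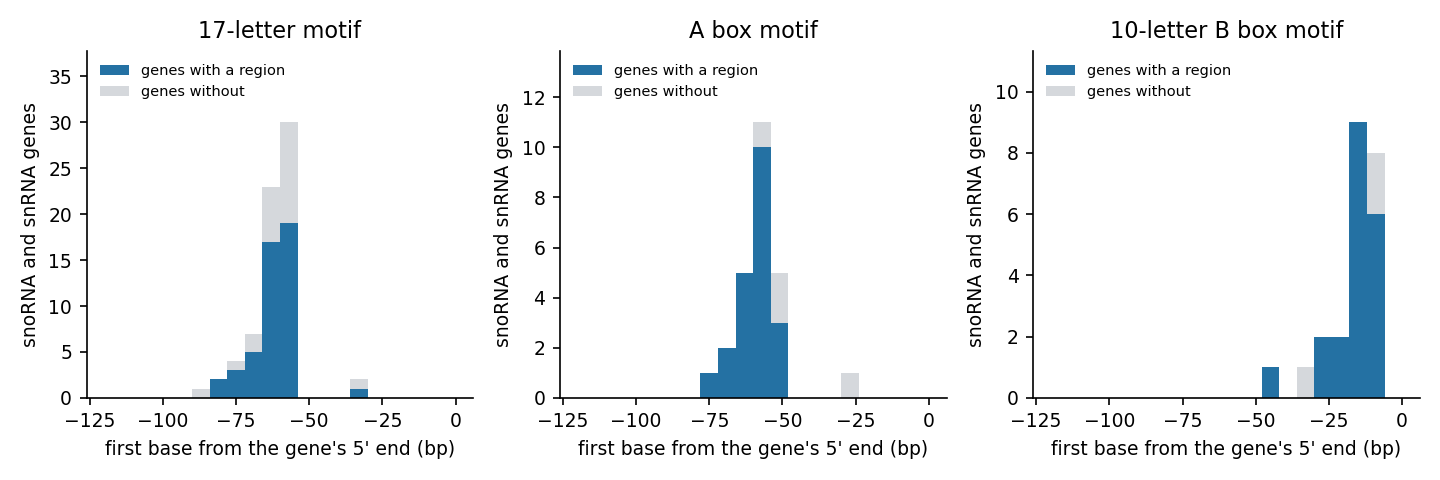
Distance from the first base of each motif to the annotated 5′ end of snoRNA and snRNA genes, in bp, with genes that have a candidate region in blue and genes without one in grey stacked on top. The 17-letter motif and the A box letters gather near 60 bp before the gene and the 10-letter B box motif near 14 bp.

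Genes with these upstream letters more often had a region than genes without them. Except for GTTCGA, the letters were spelled from sequences ahead of members, so some excess is built in and this is a description only. The 34 snoRNA genes with the 17-letter motif had a region in 27 cases and a region of the submitters' thresholded list in 20. The thresholded list consists of the regions that passed the submitters' reproducibility threshold, which were exactly the 2940 of highest signal. The 46 snoRNA genes with A or B box letters had a region in 35 cases and a thresholded one in 29, and the other 266 snoRNA genes in 69 and 26 cases. All 9 sls genes with the 17-letter motif had a region, 4 of them thresholded, against 4 of the 21 without it, of which 3 were thresholded. Those 3 were sls-2.1, sls-2.2 and sls-2.4, the strongest of the class. The 9 genes with the motif were all among the 18 sls-2 genes. The 21 without it included all 12 sls-1 genes, none with a region, so this contrast also sets sls-2 against sls-1 genes. Among other snRNA genes the counts were 11 of 26 with the motif and 22 of 73 without it, with 5 and 7 thresholded. With 1 of the 9 fixed letters allowed to differ, the motif was found before 50 of the 99 other snRNA genes and 39 of the 346 snoRNA genes. Of the 99 small RNA genes with it, 56 had a region and 32 a thresholded one, against 121 and 62 of the 376 without it. These 99 include the 69 genes with the exact motif, of which 47 had a region and 29 a thresholded one. The genes that the mismatch added had a region no more often than genes without the motif.

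**Figure D2:**
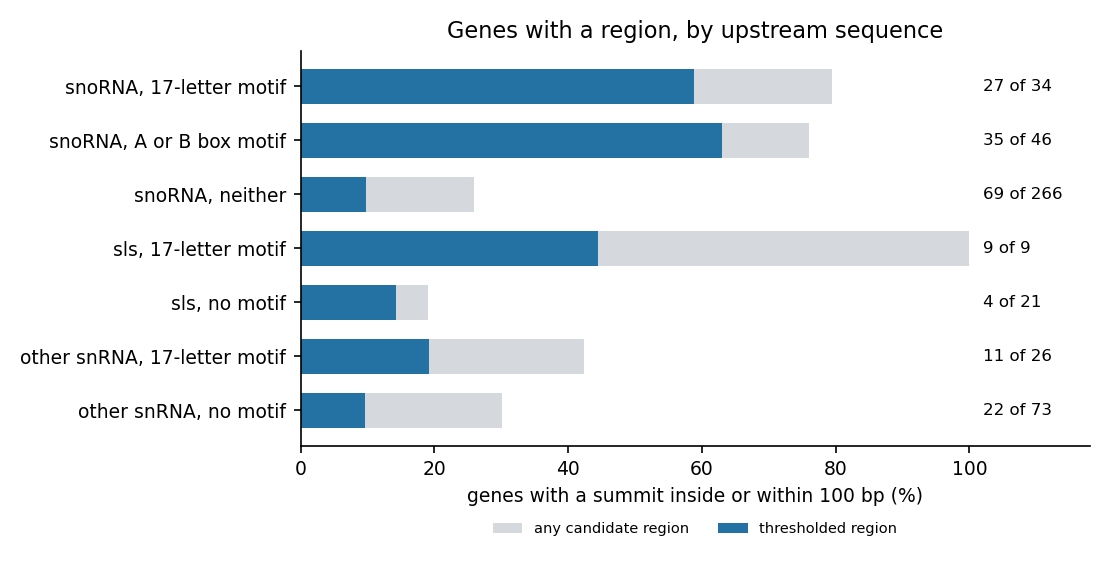
Share of genes with a candidate summit inside or within 100 bp (whole bar, count at the right) and with a thresholded one (blue), in %, by class of gene and upstream sequence. snoRNA genes with the 17-letter motif or box letters stand at 79.4% and 76.1% with a region, against 25.9% of snoRNA genes with neither. Except for GTTCGA, these letters were spelled after sequences ahead of members had been read.

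GTTCGA alone, whose letters were chosen without reading these sequences, gave a like count. Its planned count was within 50 bp of summits, and this count upstream of genes was not in the plan. The genes with GTTCGA are also largely part of the 46 with box letters, so this is not a separate check. Of the 26 snoRNA genes with GTTCGA upstream, 20 had a region and 18 a thresholded one, against 111 and 57 of the 320 without it. Genes with either kind of letters also had a region more often within each setting relative to coding genes. This too is a description, since the letters other than GTTCGA were spelled from sequences ahead of members. Among the 220 small RNA genes that lay inside a coding gene on the same strand, 17 of 23 with box letters, 18 of 23 with the 17-letter motif and 39 of 174 with neither had a region. Among the 196 genes in no coding gene, 13 of 17, 19 of 32 and 49 of 147 had one.

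Counted over all annotated genes, 177 of 475 (37.3%) had a region and 94 (19.8%) a thresholded one. For snoRNA genes it was 131 and 75 of 346, for other snRNA genes 33 and 12 of 99, and for sls genes 13 and 7 of 30. All 13 sls genes with a region were among the 18 sls-2 genes, and none of the 12 sls-1 genes had one. Each of the 12 sls-1 genes has an identical copy elsewhere in the genome, which was so for no gene of the main sls-2 family of 15. It was also so for 17 of 23 genes in the family of R07E5.16, where 8 genes had a region. In the family of C47F8.9 it was 11 of 19 genes, and 9 genes had a region. The 100 bases upstream had an identical copy for 11 of the sls-1 genes, and for 0 and 2 genes of the R07E5.16 and C47F8.9 families. How reads that match several places were handled is not given in the sources used here, and its part in the absence of regions at sls-1 genes was not tested. Of the members, 3 had a 101-bp summit window that occurs more than once in the genome, 1 of them thresholded.

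Members had higher signals than candidate regions in general. Signal is the strength of a region as the submitters' peak caller wrote it, a value on a scale of its own for each list, so lists are compared by rank. The median signal of the 190 members was 35.0, with a range of 5.94 to 381, against a median of 9.74 over all nuclear regions. The median rank of members was 2834, against 15014 over all nuclear regions and 4237 over the 357 regions within 100 bp of tRNA genes. In the thresholded list were 99 of the 190 members (52.1%, exact 95% binomial interval 44.8 to 59.4%), against 9.73% of all nuclear regions. For regions at tRNA genes it was 121 of 357 (33.9%, 29.0 to 39.1%). The share was 11 of 17 at sls genes, 14 of 38 at other snRNA genes and 74 of 135 at snoRNA genes. These intervals cover counting error only, and regions of 1 pooled list are not replicates. Members made up 2 of the strongest 20 pooled regions, 17 of the strongest 500 and 33 of the strongest 1000.

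The members nearest to the threshold differed little in signal. Just inside lay the snoRNA gene Y67A10A.14 at 34.5 (rank 2890), absent from the list of replicate 3. Just outside lay sls-2.18 at 33.7 (rank 2983), also absent from it. The deposited −log10 q-value does not separate them further, since 109 members shared its highest value, 3.86, the 99 thresholded ones and 10 others.

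In both libraries, sls-2.4, sls-2.1, sls-2.2 and sls-2.8 had regions that ranked above those at all other sls genes. sls-2.4 on chromosome I had the strongest member, at signal 381 and rank 5 of the pooled list, and the overlapping regions ranked 5 in replicate 1 and 13 in replicate 3. sls-2.1 on chromosome II had 263 and rank 20, with ranks of 21 in replicate 1 and 35 in replicate 3. sls-2.2, also on chromosome II, had 204 and rank 59, with ranks of 60 and 80 in replicates 1 and 3. None of these 3 genes holds the 17-letter motif. sls-2.8 on chromosome III, with the motif, had 136 and rank 169, and ranked 183 in replicate 1 and 89 in replicate 3. The summits lay 35, 39, 32 and 24 bp before these genes, all within the last 40 bp upstream. The other sls-2 genes were weaker. sls-2.17 had 61.5 with ranks of 1506 in replicate 1 and 263 in replicate 3, sls-2.14 had 47.2 and sls-2.13 35.3.

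Among other snRNA genes, the strongest member lay 34 bp before R07E5.16 (WBGene00014543), inside the span of the coding gene dhc-4, with signal 142 and pooled rank 146. The libraries differed over it, with rank 128 in replicate 1 and 6855 in replicate 3. T11F9.15 on chromosome V followed at 99.9996, and its regions ranked 351 in replicate 1 and 454 in replicate 3. F32B5.9 on chromosome I had 90.7 and ranks of 594 and 111 in replicates 1 and 3. The U1 gene sup-6, known from mutations that suppress splice-site defects, had a member of 84.2 at pooled rank 554, 10 bp before the gene, and ranks of 651 and 923 in replicates 1 and 3. Its relative sup-39 had 2 members, 43.2 past the gene and 27.4 before it, and both overlapped 1 replicate 1 region of rank 2389 and 1 replicate 3 region of rank 2078. F38E11.11 had 81.8 and M163.13 on chromosome X 80.03, and M163.13 ranked 641 in replicate 1 and 19422 in replicate 3.

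Grouped by sequence at 80% identity or more, the snRNA genes with regions were spread over most families. The family of R07E5.16 held 23 genes, 8 with a region and 3 with a thresholded one, and that of C47F8.9 held 19 genes, 9 and 2. The main sls-2 family held 15 genes, 13 with a region and 7 thresholded. The sup-6 and sup-39 family held 13 genes, 5 and 3, and the F32B5.9 family 12 genes, 5 and 2. The largest sls-1 family held 10 genes and none with a region, and 2 of 6 genes in the largest smy family, which encodes SmY RNAs of nematodes, had one, neither thresholded.

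The strongest snoRNA members lay below the 5′ members of sls-2.4, sls-2.1, sls-2.2 and sls-2.8 and above those of the other sls-2 genes. Y53F4B.47 on chromosome II led at 128 (pooled rank 194), with its summit 75 bp before the gene and ranks of 191 in replicate 1 and 1186 in replicate 3. F09G2.14 at 99.0, ZK994.7 at 96.0 and F59C6.15 at 95.6 followed, with ranks in replicate 3 of 2521, 363 and 5045. The box-letter genes T27A3.9 (90.4), T08B2.13 (88.7), F12F6.11 (88.6), M106.6 (87.1) and T03F7.8 (84.4) came next, and each ranked between 497 and 588 in replicate 1. In replicate 3 the regions at T27A3.9, T08B2.13, M106.6 and T03F7.8 ranked 8738, 5087, 2367 and 9365, and none overlapped the member at F12F6.11.

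Both libraries held many of the members, replicate 1 most of them. The replicate 1 list of 30000 regions overlapped 175 of the 190 members by at least 1 bp (92.1%, 87.3 to 95.5%), against 80.8% of all nuclear regions. The replicate 3 list of 24854 regions overlapped 108 (56.8%, 49.5 to 64.0%), against 36.4%. Among thresholded members 73 of 99 overlapped a replicate 3 region (73.7%), against 58.6% of thresholded nuclear regions. With the 2940 strongest regions of each replicate alone, 105 members overlapped one of replicate 1 (55.3%), against 11% of all nuclear regions, and 53 one of replicate 3 (27.9%), against 7.58%. In all, 8 members overlapped a region of replicate 3 only and 7 a region of neither. Over the 100 members that overlapped a region in both lists, the ranks in replicates 1 and 3 had a Spearman rho of 0.48, and over the 7939 such nuclear regions rho was 0.27, as descriptions of lists from these 2 libraries. Members that share a replicate region are counted separately here. The strongest overlapping regions of the 190 members were 160 different regions of replicate 1 and 97 of replicate 3.

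**Figure D3:**
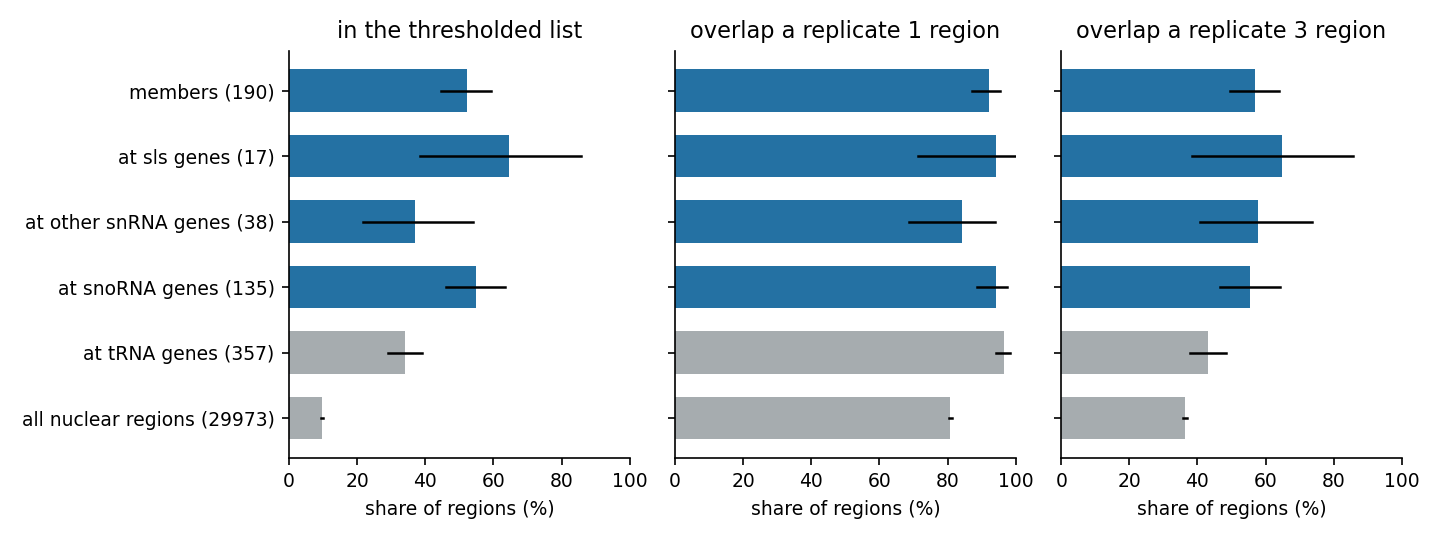
Share of regions, in %, that were in the thresholded list, overlapped a replicate 1 region or overlapped a replicate 3 region. Blue bars are members and their classes, grey bars are regions at tRNA genes and all nuclear regions, numbers of regions are in parentheses and black lines are exact binomial 95% intervals. The members stand at 52.1%, 92.1% and 56.8%, against 9.73%, 80.8% and 36.4% of all nuclear regions.

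The rule applied to each replicate's own list gave 192 regions in replicate 1, 96 of them among its 2940 strongest, and 98 regions in replicate 3, 39 of them among its strongest. That was 50% and 39.8%, against 9.74% and 11.8% of each list's nuclear regions.

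Among the strongest regions of both replicates were 44 members (23.2%), against 2.64% of all nuclear regions. They lay at 36 genes, and 8 were at sls genes, 8 at other snRNA genes and 28 at snoRNA genes. Some of these ranked far higher in replicate 3 than in replicate 1. Y23H5B.10 (signal 60.6) ranked 92 in replicate 3 and 1552 in replicate 1, C08D8.3 (81.5) ranked 95 and 770, F17C11.24 (60.5) 121 and 1471, and Y37E3.20 (71.5) 157 and 974. C16D9.10, C51F7.4, T04A8.17, F48A9.6 and K07C10.2 ranked between 179 and 216 in replicate 3 and between 1078 and 2531 in replicate 1. T19B4.8, ZK484.9, ZK20.9, D2021.6, K11C4.6 and F32E10.10 ranked between 602 and 1579 in replicate 3 and between 797 and 2130 in replicate 1. F25H2.15, Y39G10AR.24 and F43A11.8 ranked between 381 and 428 in replicate 3. T02E1.9, C54G4.16 and T08B6.64 lay between 2254 and 2898. C51F7.3, with signal 21.4, shared its replicate regions with C51F7.4 and was not thresholded.

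**Figure D4:**
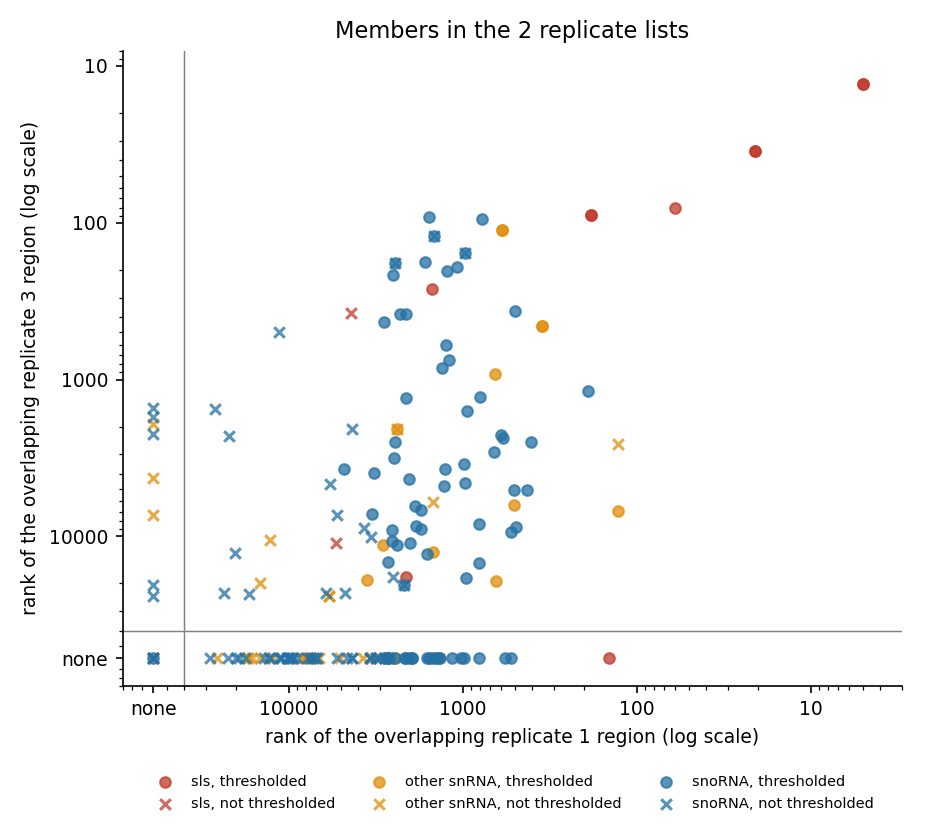
Rank of the strongest region that overlaps each member in the replicate 1 list (x axis) and the replicate 3 list (y axis). Scales are logarithmic with the strongest at the top right, and "none" marks members that no region overlapped. Circles are thresholded members and crosses the others, coloured by class, and 2 members that overlap the same regions fall on 1 point. sls-2.4, sls-2.1, sls-2.2 and sls-2.8 occupy the top right corner.

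The summits of thresholded members lay mostly just before the gene, at snoRNA genes more than at snRNA genes. Of 99, 65 lay upstream of the 5′ end (65.7%, 55.4 to 74.9%), 23 inside the gene and 11 past its 3′ end, and the median summit was 26 bp upstream. By the summit of the strongest overlapping region, 73 of 98 lay within 100 bp upstream in replicate 1. In replicate 3 it was 31 of 73. Members that share such a region are counted separately, and a member past the gene can take a summit before it. These counts are therefore not a separate check of position. Of all 190 members, 94 lay upstream, 53 inside and 43 past the gene. Since members lie within 100 bp by the rule, the upstream, inside and downstream classes are not of equal length. In the profile over 500 bp to each side of snoRNA genes, drawn without that limit, 55 thresholded summits lay in the 100 bp upstream and 17 in the first 100 bp downstream of the 5′ end, and the fullest 25-bp bin was 50 to 26 bp upstream with 21. For tRNA genes the counts were 72 and 54, and the fullest bin was the last 25 bp upstream, with 35. For coding genes they were 272 and 69, and the fullest bin lay 150 to 126 bp upstream.

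**Figure D5:**
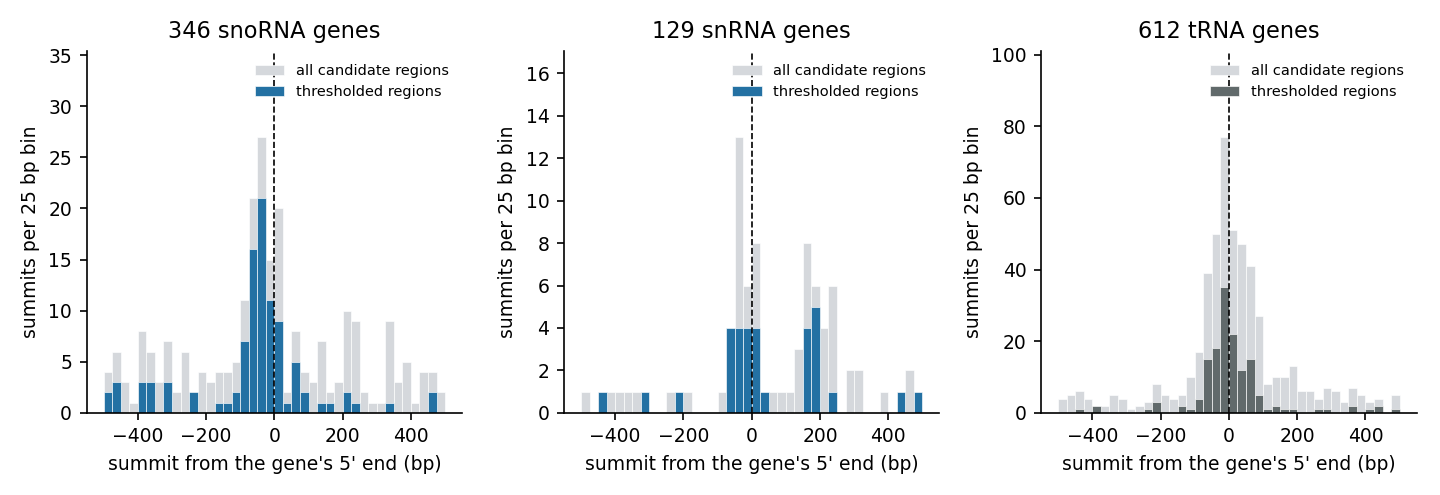
Summits per 25-bp bin against distance from the annotated 5′ end, in bp, with negative values upstream, at snoRNA, snRNA and tRNA genes (vertical scales differ). Grey bars are all candidate regions and coloured bars the thresholded ones. Summits at snoRNA genes crowd into the 100 bp upstream, and those at snRNA genes also gather past 150 bp.

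Position differed by upstream type. At genes with box letters, 27 of 28 thresholded members lay upstream, at a median of 41 bp. In the replicate 1 list it was 27 of 28, at a median of 47.5 bp, all 27 within 100 bp. In that of replicate 3 the summits were more scattered, with 14 of 19 upstream, of which 7 lay within 100 bp. At genes with the 17-letter motif, 16 of 31 lay upstream, and at genes with neither 22 of 40. By class, 54 of 74 thresholded members at snoRNA genes lay upstream, 18 inside and 2 past the gene. At sls genes it was 5, 2 and 4 of 11, and at other snRNA genes 6, 3 and 5 of 14.

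At 15 genes there were 2 members, and 11 of these were sls or other snRNA genes. At 13 of the 15, 1 summit lay before the gene and the other past its 3′ end. Over all 15 pairs the summits lay 200 to 310 bp apart, with a median of 204 bp, and the member at the 5′ side was the higher in 11. At sls-2.4 it had signal 381 and the 3′ one 120.3, at sls-2.1 263 and 94.4, at sls-2.2 204 and 129.5, and at sls-2.8 136 and 45.8. The 3′ member was the higher at sup-39, C47F8.9 (WBGene00014311), T08G5.11 and F11A5.14. The strongest overlapping region was the same for both members of a pair at 13 genes in replicate 1 and at 9 in replicate 3. Weaker regions under the same pair were not counted, so these counts cannot show whether a library held 1 region or more there.

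WGATAR was rare at thresholded members, and at the others near the share over all nuclear regions. On either strand within 50 bp of the summit it was found in 25 of 190 members (13.2%, 8.70 to 18.8%), against 20.5% of equally long windows 500 bp away on either side and 23.3% of all nuclear regions. Among thresholded members it was 5 of 99 (5.05%, 1.66 to 11.4%), against 21.7% of their flanks, 22.0% of the members that were not thresholded and 34.8% of thresholded nuclear regions. The 5, named after their values were seen, were the 3′ members of sls-2.4 and sls-2.1 and the members at C08D8.3, Y37E3.20 and Y67A10A.14. By class, WGATAR was in 4 of 17 members at sls genes, against 11.8% of their flanks. It was in 4 of 38 at other snRNA genes (flanks 21.1%) and 17 of 135 at snoRNA genes (flanks 21.5%). GATAAG, which can overlap WGATAR, was in 4 of 190 members, against 6.05% of all nuclear regions. It was in 0 of 99 thresholded members, for which the exact interval reaches 3.66%, and in 14.3% of thresholded nuclear regions. The summit windows of thresholded members had a median GC content of 52.5%, against 42.6% in thresholded nuclear regions. The part of base composition in the WGATAR counts was not tested.

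Other letters were more frequent at members. GTTCGA lay within 50 bp of 17 of the 99 thresholded summits (17.2%), against 4.04% of their flanks and 4.56% of thresholded nuclear regions. Over all members it was 21 of 190, against 3.83% of all nuclear regions, and at the 357 regions near tRNA genes, which hold the letters inside the gene, 33.1%. The 17-letter motif was in 16 thresholded members (16.2%), against 0.686% of thresholded nuclear regions, so 16 of the 20 thresholded nuclear summits with it were members, and over all members it was in 19 of 190, against 0.214% of all nuclear regions. The A box letters were in 21 of 190 members, against 0.884% of all nuclear regions, and GTTCNANNCC in 16, all thresholded, against 1.16%. The 17-letter, A box and GTTCNANNCC motifs were spelled after sequences ahead of members had been read. Their excess at members is therefore partly built in and is a description only. GAGAGA was in 10% of members and ACGCAG in 4.21%, against 10.7% and 4.37% of all nuclear regions, which is near the background. Among thresholded members both were less frequent than among thresholded regions in general. GAGAGA was in 14.1% of thresholded members (7.95 to 22.6%), against 25.1% of thresholded nuclear regions, and ACGCAG in 7.07% (2.89 to 14.0%), against 13.3%.

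The 5′ windows of coding genes, which run from 1000 bp before the start of a coding gene to 500 bp past it, held members about as often as regions in general. Inside were 67 of 190 members (35.3%), against 31.0% of all nuclear regions. Of the thresholded members it was 38 of 99 (38.4%, 28.8 to 48.7%), against 49.9% of thresholded nuclear regions. Of the 123 members outside such windows, 61 were thresholded (49.6%), and 66 overlapped a region of replicate 3. The T11F9.15 member is an example of a shared one, since it also lies 344 bp upstream of snr-4, which encodes an Sm protein of the snRNP core. By chromosome, members numbered 45 on I, 45 on II, 27 on III, 36 on IV, 31 on V and 6 on X, where 36 of the 475 genes lie, and 20, 27, 12, 17, 19 and 4 of them were thresholded.

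The coding genes of the proteins that package these RNAs often had a thresholded summit in their 5′ windows too. The lists were set with earlier results of these data known, and 9.4% of the 19973 coding genes had such a summit. All 4 genes of the box C/D snoRNP had one: the methyltransferase gene fib-1 (90.5, 68 bp upstream), nol-58 (79.6), snu-13 (57.7) and nol-56 (50.01). Of the box H/ACA genes, 3 of 4 had one, with nola-3 at 87.1, Y48A6B.3 at 69.2 and the pseudouridine synthase gene dkc-1 at 35.4. Of the Sm genes, 6 of 7 had one, at snr-4 (99.9996), snr-3 (49.5), snr-2 (48.3), snr-6 (44.8), snr-7 (35.7) and snr-1 (35.3). The snr-4 summit is that of the T11F9.15 member. Of 7 LSm genes found, whose proteins bind U6 snRNA or act in mRNA decay, 3 had one, lsm-7 (50.9), lsm-6 (48.6) and lsm-3 (47.7), and of 7 SNAPc genes 1 had one, snpc-3.4 (57.4, 22 bp upstream). Of these 17 genes with a summit, 8 had one in a region that overlapped a region of replicate 3, against 58.6% of all thresholded nuclear regions. The 8 were fib-1, nol-58, nol-56, snr-4, snr-6, snr-7, lsm-6 and snpc-3.4. The others, among them all box H/ACA genes with a summit, had no such overlap.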

How the data were processed

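ChIP-seq regions of 2 libraries were used. Per the deposited manifest, the authors built the replicate lists and the pooled list from alignments set against 1 control file for both libraries, and the thresholded list from those 3. Which aligner, peak caller or filters were used is not given in the sources used here. In the lists, the deposited signal column is the caller's strength of a region and the deposited −log10 column that of its q-value. The lists carry no read counts, so depth is unknown. All lists used were in build ce11.

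Genes came from Ensembl release 115 on WBcel235 and sequence from the RefSeq copy of that assembly. Overlap required 1 bp. Intervals are exact Clopper-Pearson 95% intervals. No test was made, because the labels give 1 group, and shares over all nuclear regions stand beside those of members. The members, lists and named genes were chosen with earlier results of these data known. Named were the genes of the 20 strongest members, the 4 strongest of each class, members among the strongest regions of both replicates, those next to the threshold, and listed protein genes with a thresholded summit. A few further genes were named after their values were seen, as relatives or examples. Other windows, thresholds, overlaps and single replicates were tried as alternatives. The functions were tested on simulated data. Python 3.11.15, numpy 2.4.6, pandas 2.3.3, scipy 1.17.1, edlib 1.3.9.post1 and matplotlib 3.10.9 were used.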

Additional observations from a re-analysis of the deposited data

How the results depend on the processing

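No paired analysis was possible because the labels give 1 group. Of the 28 alternatives, 12 stayed within 1.5 times a count or within the exact interval of a share, and 16 did not. With summits inside the gene, there were 53 member regions, 43.4% of them thresholded, and 11.2% of genes had a region. With summits within 250 bp, 43.5% of members were thresholded and 45.9% of genes had a region. A threshold at the median signal of the thresholded list kept 26.8% of members, and thresholded regions alone gave 19.8% of genes. Each replicate alone put between 39.8% and 50% of its members among its strongest regions. Overlap with replicate 3 was 44.7% when it had to cover at least 50% of the member, 38.4% with summits within 100 bp and 27.9% with its strongest regions alone. Overlap with the strongest regions of replicate 1 was 55.3%. WGATAR was in 5.26% of members within 25 bp, 28.4% within 100 bp and 5.05% of thresholded members within 50 bp. Those windows differ in length, which by itself moves the share. Upstream summits made up 81.2% of the 16 thresholded members narrower than 350 bp. They made up 61.6% and 74.5% with the strongest overlapping summits of replicate 3 or replicate 1 alone, and in replicate 3 some lay over 100 bp away. In these replicate shares, members that share a region are counted separately. These last alternatives, on position, were chosen after seeing the data. The lists hold no read counts and no untagged worms, so neither depth nor a signal without the tag could be set beside these shares.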
